A study of Mus musculus with 17 samples.

Results

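Primary tumours grown under the skin were compared with primary tumours grown on the ovary, both from ID8, a mouse ovarian surface epithelial cell line used as a model of ovarian carcinoma. The comparison used 5 of the series' 17 libraries, chosen by their labels alone: subcutaneous tumours 2 and 3 (n = 2) and orthotopic tumours 1, 2 and 3 (n = 3). All 5 were labelled as primary tumour tissue formed after injection of ID8 cells. The subcutaneous tumours were labelled as lying on the scruff, while the treatment protocol spoke of the right and left flank. The orthotopic tumours were placed in the bursa of the right ovary and labelled as lying on the ovary. The healthy ovary and healthy intestine libraries, used below for reference levels, were titled C57BL6. No genotype, host strain, age or further agent was given in the labels of the 5 compared libraries. Their labels did not say whether tumours came from separate animals. The p-values therefore measure only the spread between samples, which may be technical, and which was estimated over all 17 libraries in 8 groups, so that much of it comes from other groups.

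The skin and the ovary surround a tumour with different host tissue. Skin holds squamous epithelium, which is layered from basal cells anchored by Krt5 and Krt14 keratins to upper cells that make Krt10 and cornified envelope proteins, and it lies over fat and draining lymph nodes. The ovary holds granulosa and steroid-making cells under a mesothelium-like surface layer from which ID8 was derived. A bulk tumour library mixes RNA of tumour and host cells, so for every gene here fewer cells of a type and less RNA per cell cannot be told apart.

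The 2 subcutaneous libraries were unlike each other and unlike the orthotopic ones in composition. Total counts were 24145706 and 15014218 in subcutaneous tumours 2 and 3 and 27342134 to 38902048 in the orthotopic tumours. Across 22671 tested genes, the correlation of log2 CPM (counts scaled to a common library total) was 0.861 between the subcutaneous tumours, 0.862 to 0.870 between tumour 2 and the orthotopic libraries, 0.926 to 0.936 between tumour 3 and the orthotopic libraries, and 0.965 to 0.979 among the orthotopic libraries. Mitochondrial genes took 14.0% and 10.7% of counts under the skin and 6.37% to 6.99% on the ovary. In tumour 3, olfactory receptor genes, which these tissues are not known to use, summed to 552 CPM with a count in 1031 of 1257 genes, against 67.4 CPM in tumour 2 and 28.2 to 44.5 CPM in the orthotopic tumours. Their 95th percentile in tumour 3 was 0.884 CPM, a level below which single genes of that library are hard to read. As a check of the labels, 8 genes with at least 20 CPM in the cultured line and under 0.5 CPM in healthy ovary and healthy intestine had medians of 1.48% and 26.5% of the line in subcutaneous tumours 2 and 3, and of 6.40%, 2.71% and 15.8% in orthotopic tumours 1, 2 and 3. These genes were not screened against skin, for which the series had no library, so they do not measure the share of ID8 cells alone. Skeletal muscle genes were high in orthotopic tumour 2, where Acta1, skeletal actin, had 233 CPM and Ttn, titin, 1560 CPM. The part of these differences in the results was not tested.

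Values below are CPM scaled with TMM factors (trimmed mean of M values), given for subcutaneous tumours 2 and 3 and then for orthotopic tumours 1, 2 and 3. Log2 fold changes (log2FC) are subcutaneous minus orthotopic with their standard error (SE), from edgeR's quasi-likelihood test with Benjamini-Hochberg adjustment over all tested genes. Ly6d, Lad1 and Fabp5 passed at an adjusted p under 0.05 and rose under the skin, which is 0.0132% of tested genes, and 0 genes (0%) fell. The smallest adjusted p among lower genes was 0.0532. At an adjusted p under 0.1 there were 732 higher and 145 lower genes. At an unadjusted p under 0.05 edgeR gave 3440 higher genes (15.2%) and 1250 lower genes (5.51%), while DESeq2 called 1784 higher and 516 lower and voom with sample weights 298 higher and 8 lower after adjustment. With so few adjusted calls, most of what follows rests on a count without a test: genes whose subcutaneous values both lay above, or both below, all 3 orthotopic values. Such separation upward was found for 5212 genes (23.0%) and downward for 4099 (18.1%). It held with a gap of at least 2-fold for 1004 (4.43%) and 210 (0.926%). Only 4121 of the upward genes also exceeded the olfactory level in tumour 3, a check chosen after seeing the data. With mitochondrial genes left out, 4863 genes lay above and 4889 below, and with library totals alone 5967 and 3022. The excess upward thus depended on the scaling. The balance turned with expression level: among 9587 genes with at least 10 CPM in every library of 1 site, 1056 lay above and 3348 below. Over all tested genes the median log2FC was 0.25.

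The 3 genes that passed are all known from squamous epithelium, though not from it alone. Ly6d (ENSMUSG00000034634), known from the surface of squamous cells and early B cells, had 205 and 29.1 CPM under the skin and 0.882, 0.765 and 0.263 CPM on the ovary. Lad1 (ENSMUSG00000041782), which anchors the epidermal basement membrane, had 14.8 and 26.998 CPM against 0.779, 0.665 and 1.13 CPM. Fabp5 (ENSMUSG00000027533), a carrier of fatty acids in epidermis, had 43.3 and 11.1 CPM against 1.77, 2.16 and 1.53 CPM. Both subcutaneous values of each gene lay far above the orthotopic range, with the higher of them in tumour 2 for Ly6d and Fabp5 and in tumour 3 for Lad1. In the cultured line Lad1 had 11.9 CPM and Fabp5 25.6 CPM, the former just under and the latter between the subcutaneous values. In healthy ovary and healthy intestine Lad1 had 159 and 326 CPM, Fabp5 19.7 and 8.78 CPM, and Ly6d 1.24 and 23.0 CPM. Lad1 was thus higher in both healthy tissues than under the skin, and its level does not mark squamous tissue alone. The log2FC was 7.51 ± 0.98 for Ly6d, 4.59 ± 0.60 for Lad1 and 3.90 ± 0.51 for Fabp5 (SE, edgeR adjusted p = 0.0401 for each). Each call was lost without subcutaneous tumour 2 (adjusted p 0.0927 to 0.09997), without any 1 of the orthotopic tumours (0.167 to 0.224) and with only the 5 libraries in the fit (0.164).

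**Figure D1:**
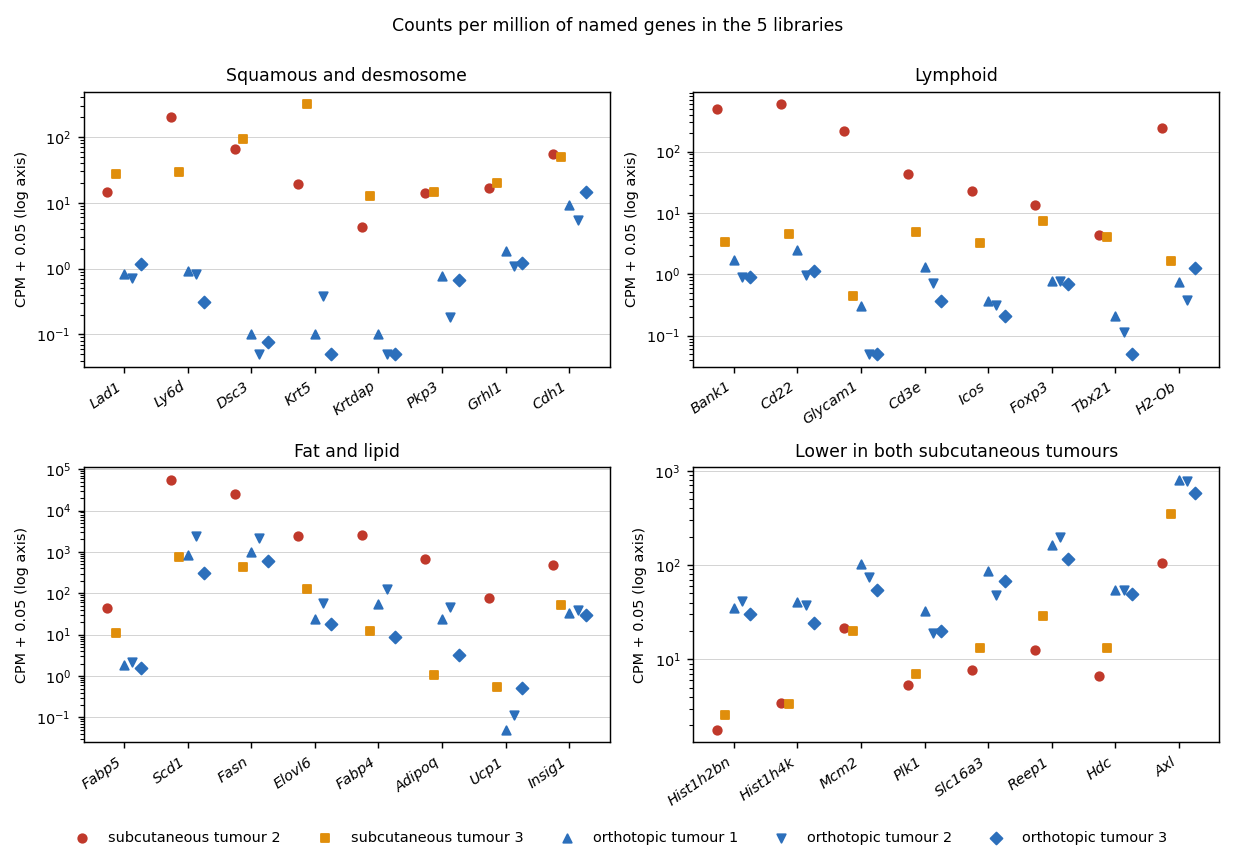
Each point is the CPM of a gene in 1 library on a log axis, with 0.05 added so that zeros can be drawn, for genes of 4 groups. In the squamous panel both subcutaneous tumours lie above the orthotopic ones, in the lymphoid panel tumour 2 leads, in the fat panel tumour 2 leads and tumour 3 lies with or below the orthotopic tumours for Fasn, Fabp4 and Adipoq, and in the last panel both subcutaneous tumours lie below all 3 orthotopic tumours.

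Genes with the widest gap between the sites were led by Dsc3, desmocollin 3, a desmosomal cadherin of stratified epithelium. It had 65.7 and 93.6 CPM under the skin and 0.0519, 0 and 0.0263 CPM on the ovary. From 3 orthotopic reads in all, its rate was 2334 times the orthotopic one in tumour 2 (95% exact interval 797 to 11333) and 3327 times in tumour 3 (1137 to 16145), intervals that cover counting error only. Krt77, a keratin of sweat ducts, had 13.9 and 46.4 CPM against 0.104, 0 and 0 CPM. Krt5, the basal keratin, had 19.1 and 315 CPM against 0.0519, 0.332 and 0 CPM. Prom2, a protein of epithelial membrane protrusions, was nearly equal in the subcutaneous tumours at 14.6 and 14.4 CPM, against 0.104, 0.266 and 0.211 CPM. Serpinb5, the epithelial serpin maspin, had 12.2 and 35.1 CPM against 0, 0.133 and 0.158 CPM. All of these genes were at or near 0 in every orthotopic tumour and clearly present in both subcutaneous ones. Their choice by the gap, with at least 10 CPM in both subcutaneous tumours, largely fixes this.

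Transcription factors of surface ectoderm were in the same group of widest gaps. Tfap2a, an AP-2 factor of skin and neural crest, had 13.8 and 24.2 CPM against 0.0519, 0.332 and 0.211 CPM. Its relative Tfap2b had 25.6 and 11.2 CPM against 0, 0.598 and 0 CPM. Irx2, an Iroquois homeobox factor, had 10.51 and 14.2 CPM against 0, 0.598 and 0.0526 CPM. A pair of zinc finger factors known both from lymphocytes and from skin completed the group. Bcl11a had 280 and 30.7 CPM against 0.701, 0.0665 and 0.737 CPM, and so was far higher in tumour 2. Bcl11b had 45.0 and 31.9 CPM against 1.22, 0.332 and 0.105 CPM, closer between the subcutaneous tumours.

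Squamous genes stood higher under the skin, and mainly in tumour 3. Of 19 tested genes of the upper squamous layers, 0 passed the adjusted test. In the higher direction 14 had an unadjusted edgeR p under 0.05, against 15.2% of all genes. Of the 19, 13 lay above all orthotopic values and 0 below, against 23.0% and 18.1% of all genes. The 13 also exceeded the olfactory level in tumour 3. Their median log2FC was 4.43, against 0.25 over all genes; taken alone against the shared orthotopic libraries it was 2.57 for tumour 2 and 5.24 for tumour 3, with members that had no read in a group set at a bound of 3 counts. Krtdap, a keratinocyte differentiation protein, had 4.30 and 12.8 CPM against 0.0519, 0 and 0 CPM. Krt10, the keratin of the suprabasal layers, had 16.98 and 56.0 CPM against 3.24, 3.26 and 3.34 CPM. Tgm1, the transglutaminase that cross-links the cornified envelope, had 17.98 and 6.04 CPM against 0.986, 0.299 and 1.4999 CPM, and was the higher in tumour 2. Sfn, a 14-3-3 protein of keratinocytes, had 13.6 and 21.99 CPM against 2.102, 1.60 and 6.68 CPM. Keratins of wounded or hair-bearing skin were high in tumour 3, where Krt6a had 83.9 CPM against 0.521 CPM in tumour 2 and at most 0.104 CPM on the ovary. Krt16 had 30.3 CPM in tumour 3 and no read in the 4 other tumours.

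In the basal squamous list 5 of 12 genes lay above all orthotopic values and 1 below, against 23.0% and 18.1% of all genes. Krt14, the partner of Krt5, had 8.77 and 229 CPM against 2.54, 1.73 and 2.11 CPM. Krt15, a keratin of basal and hair bulge cells, had 6.86 and 35.05 CPM against 0.208, 0 and 0.737 CPM. Trp63, the master regulator of stratified epithelium, had 18.3 and 75.2 CPM against 3.27, 16.6 and 2.61 CPM, so orthotopic tumour 2 nearly reached subcutaneous tumour 2. Itga6, an integrin chain that fastens basal cells, had 113 and 221 CPM under the skin and 460, 489 and 243 CPM on the ovary, the reverse order. The list's median log2FC of 1.00 turned to -0.22 without tumour 3.

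Desmosomes, the junctions that bind epithelial cells through cadherins, plakophilins and desmoplakin, differed by gene. Of 13 members, 7 lay above all orthotopic values, against 23.0% of all genes, all 7 by at least 2-fold, against 4.43%. The 2 below were near the 18.1% of all genes. Besides Dsc3, Pkp3, a plakophilin of the plaque, had 13.8 and 14.5 CPM against 0.727, 0.133 and 0.632 CPM. Dsg1a, a desmoglein of upper layers, had 9.20 and 37.6 CPM against 0.0519, 0 and 0 CPM. Dsg3, a desmoglein of basal layers, had 0.695 and 45.2 CPM against 0.0519, 0 and 0.0526 CPM, and so was far higher in tumour 3. The members below were Dsc2 and Pkp2, forms also used outside squamous epithelium. Pkp2 had 12.5 and 32.2 CPM against 57.7, 56.7 and 54.9 CPM. Among 4 tested melanocyte genes, Dct, an enzyme of melanin synthesis, had 14.3 CPM in tumour 3 and 0.955 CPM in tumour 2, against at most 0.311 CPM on the ovary. Of 10 hair follicle and sebaceous genes, 8 lay above all orthotopic values in tumour 3 and 2 in tumour 2, against 40.6% and 41.1% of all genes.

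The promoters of 3 cornified envelope and differentiation genes of this list are shown because these genes stood higher together in tumour 3. Ivl is involucrin, with 0.174 and 2.21 CPM under the skin and 0, 0 and 0.0526 CPM on the ovary. Flg is filaggrin, with 0.608 and 2.06 CPM against 0.104, 0 and 0 CPM. The tumour 3 value of each of the 3 genes exceeded the olfactory level of that library, and each tumour 2 value exceeded the olfactory 95th percentile of tumour 2, 0.0828 CPM on library totals. The sequences are the 250 bases before each gene's start, from RefSeq (GRCm38.p6), read 5′ to 3′ on the gene's strand, with capitals for AP-1 motifs (TGANTCA, both strands) and TATA motifs (TATAAA, both strands).
Krtdap, chr7:30787655-30787904, plus strand: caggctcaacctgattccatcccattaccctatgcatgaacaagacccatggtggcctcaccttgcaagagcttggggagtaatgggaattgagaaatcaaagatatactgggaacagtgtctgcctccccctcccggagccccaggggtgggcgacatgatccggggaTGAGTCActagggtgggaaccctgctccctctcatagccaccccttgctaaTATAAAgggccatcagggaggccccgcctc
Ivl, chr3:92573736-92573985, minus strand: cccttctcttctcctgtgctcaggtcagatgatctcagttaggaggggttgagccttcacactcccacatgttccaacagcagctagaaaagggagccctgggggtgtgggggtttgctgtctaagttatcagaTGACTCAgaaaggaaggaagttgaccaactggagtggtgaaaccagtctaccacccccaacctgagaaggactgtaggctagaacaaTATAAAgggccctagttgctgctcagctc
Flg, chr3:93273296-93273545, plus strand: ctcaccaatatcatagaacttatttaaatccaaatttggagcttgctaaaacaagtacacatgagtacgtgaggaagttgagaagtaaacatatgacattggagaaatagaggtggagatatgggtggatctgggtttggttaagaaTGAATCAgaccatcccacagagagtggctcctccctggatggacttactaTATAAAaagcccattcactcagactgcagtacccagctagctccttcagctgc
The AP-1 letters began at -81 in Krtdap, -116 in Ivl and -103 in Flg, and the TATA letters at -30, -29 and -53, counted from the start. Of the 20 listed genes of the upper layers 14 had a promoter in the table, and 8 of these (57.1%) held the AP-1 letters in this window, against 6.75% of all 32851 promoters of the same length. The TATA letters were in 8 of 14 as well, against 12.4% of all. In the basal squamous list, AP-1 letters were in 0 of 6 promoters and TATA letters in 1 of 6. The same window of Lad1, a gene that passed the adjusted test, held neither the AP-1 nor the TATA letters. These are matches of letters, not sites of binding.

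**Figure D2:**
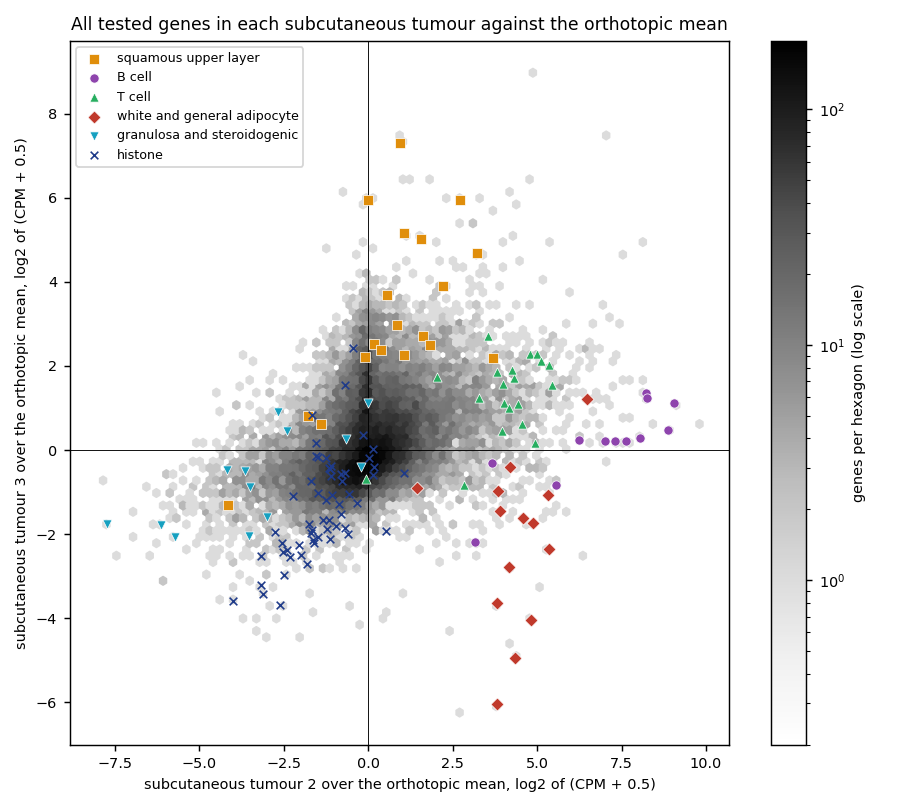
Each hexagon counts tested genes by their log2 ratio of CPM + 0.5 to the orthotopic mean in subcutaneous tumour 2 (x axis) and tumour 3 (y axis), and the coloured marks are members of 6 gene groups. Squamous genes spread upward along tumour 3, B cell and fat genes spread to the right along tumour 2, T cell genes lie to the upper right, and histone genes lie to the lower left, below the orthotopic mean in both tumours.

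Lymphoid genes also stood higher under the skin, and mainly in tumour 2. Of 20 T cell genes, 0 passed the adjusted test. In the higher direction 18 had an unadjusted edgeR p under 0.05, against 15.2% of all genes. Of the 20, 16 lay above all orthotopic values and 0 below, against 23.0% and 18.1% of all genes. Of the 16, 15 exceeded the olfactory level in tumour 3. Their median log2FC was 4.60, and 5.29 for tumour 2 and 2.14 for tumour 3 taken alone. Icos, a costimulatory receptor of T cells, had 23.2 and 3.14 CPM against 0.311, 0.266 and 0.158 CPM. Cd3e, a chain of the T cell receptor complex, had 43.1 and 4.91 CPM against 1.27, 0.665 and 0.316 CPM. Cd4, the coreceptor of helper T cells, had 62.3 and 5.74 CPM against 2.08, 0.698 and 0.368 CPM. Both tumours lay above the ovary for these genes, tumour 2 about an order of magnitude over tumour 3. Foxp3, the factor of regulatory T cells, was closer between them, at 13.5 and 7.41 CPM against 0.727, 0.731 and 0.658 CPM. Cd8a, the coreceptor of killer T cells, had 44.3 and 1.13 CPM against 1.56, 0.598 and 0.711 CPM, so tumour 3 lay inside the orthotopic range.

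Killer cell genes followed the T cell genes. Of 12 tested NK and cytotoxic genes, 9 lay above all orthotopic values, 7 of them over the olfactory level, and 0 below. Over all genes 23.0% lay above and 18.1% below. Tbx21, the T-bet factor of type 1 lymphocytes, had 4.39 and 4.07 CPM against 0.156, 0.0665 and 0 CPM, nearly equal in the subcutaneous tumours. Klrk1, the activating receptor NKG2D, had 13.03 and 3.34 CPM against 0.519, 0.133 and 0.184 CPM. Nkg7, a granule protein of killer cells, had 12.5 and 2.26 CPM against 0.571, 0.399 and 0.263 CPM. The effectors themselves stayed low: Gzmb, granzyme B, had 2.08 and 0.589 CPM against 1.95, 0.133 and 0.684 CPM, which overlap. Ifng, interferon gamma, had no read in tumour 2 and 4 reads in tumour 3, against 2 orthotopic reads in all.

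B cell genes were high in tumour 2. Over all genes, 41.1% lay above the orthotopic range in tumour 2 and 40.6% in tumour 3. All 12 tested B cell genes lay above the orthotopic range in tumour 2, and 11 passed the adjusted test there, while 6 lay above it in tumour 3, 3 of them over the olfactory level, and 0 passed. In that comparison of tumour 2 alone with the orthotopic libraries 771 genes (3.40%) passed as higher and 201 (0.887%) as lower, and the test assumes that the lone library varies like the other groups. Cd22, an inhibitory receptor of B cells, had 593 and 4.57 CPM against 2.44, 0.931 and 1.08 CPM, and rose in tumour 2 alone (edgeR adjusted p = 0.000515). Bank1, a B cell scaffold, had 487 and 3.29 CPM against 1.64, 0.864 and 0.842 CPM, and rose in tumour 2 alone (edgeR adjusted p = 5.61e-05). These genes were among the abundant ones in tumour 2, and in tumour 3 they were close to the orthotopic tumours.

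Genes of lymph node structure were high in the same library. Of 11 such genes 9 lay above the orthotopic range in tumour 2 and 5 in tumour 3, against 41.1% and 40.6% of all genes. The count in tumour 3 was thus near the share of all genes. Glycam1, a mucin of high endothelial venules where lymphocytes enter lymph nodes, had 215 and 0.393 CPM against 0.260, 0 and 0 CPM. Cxcl13, the chemokine that forms B cell follicles, had 598 and 6.23 CPM against 7.29, 5.75 and 4.47 CPM. Cr2, the complement receptor of follicular dendritic cells and B cells, had 579 and 4.71 CPM against 2.13, 5.15 and 4.63 CPM. Tumour 2 exceeded every other tumour for all 3 genes. Plasma cell genes did not separate the sites. Of 10, 1 lay above and 2 below all orthotopic values, against 23.0% and 18.1% of all genes. Irf4, a factor of activated and plasma cells, had 128 CPM in tumour 2 and 5.50 CPM in tumour 3, against 3.61, 11.6 and 3.84 CPM. The part of lymph node tissue in the values of tumour 2 was not tested.

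Dendritic cell genes stood above all orthotopic values in 8 of 11 members, all 8 over the olfactory level, with 1 below. The shares of all genes were 23.0% above and 18.1% below. Flt3, the receptor for the dendritic cell growth factor, had 14.1 and 6.43 CPM against 1.87, 0.632 and 1.03 CPM. Ccl22, a chemokine that draws regulatory T cells, had 28.0 and 6.53 CPM against 1.35, 0.798 and 2.24 CPM. Siglech, a lectin of plasmacytoid dendritic cells, had 21.8 and 1.62 CPM against 0.363, 0.332 and 0.237 CPM. Among 19 chemokines 6 lay above, against 23.0% of all genes, and 1 below, the latter Cx3cl1, fractalkine, with 29.1 and 141 CPM against 211, 169 and 203 CPM.

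MHC class II genes had higher values than on the ovary in both subcutaneous tumours, and class I genes mainly in tumour 2. In edgeR 0 members of either list passed the adjusted test. In each, 8 had an unadjusted edgeR p under 0.05 in the higher direction, against 15.2% of all genes. Of 11 MHC class II genes, 10 lay above all orthotopic values, 9 of them over the olfactory level, and 0 below. Over all genes 23.0% lay above and 18.1% below. The list's median log2FC was 1.82. H2-Aa, a class II chain, had 1164 and 518 CPM against 333, 200 and 181 CPM. Ciita, the class II transactivator, had 292 and 36.5 CPM against 22.2, 10.0 and 14.5 CPM. The peptide-loading chains of B cells behaved otherwise: H2-Ob had 245 CPM in tumour 2 and 1.57 CPM in tumour 3, against 0.701, 0.332 and 1.21 CPM. In the class I list 7 of 13 lay above and 1 below, against the same shares of all genes. Its median log2FC was 1.85 for tumour 2 and 0.30 for tumour 3 taken alone. In tumour 3, 3 members lay below the orthotopic range, against 32.1% of all genes. Nlrc5, the class I transactivator, had 126 and 26.9 CPM against 4.91, 4.39 and 9.29 CPM. B2m, the light chain of class I, had 2642 and 1136 CPM against 888, 388 and 710 CPM. The endoplasmic chaperones of class I assembly did not follow, and Pdia3 had 163 and 150 CPM against 343, 234 and 266 CPM.

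Interferon response genes lay above all orthotopic values in 11 of 21 members and below in 0, against 23.0% and 18.1% of all genes. Their median log2FC was 1.196. Mx1, an antiviral GTPase, had 27.01 and 4.71 CPM against 1.43, 0.632 and 0.553 CPM. Gbp3, a guanylate-binding protein induced by interferon gamma, had 35.5 and 17.2 CPM against 12.5, 4.12 and 5.37 CPM. Isg15, a ubiquitin-like product of the same response, overlapped between the sites at 7.77 and 2.85 CPM against 7.01, 1.93 and 2.79 CPM. Of 14 immune checkpoint genes 9 lay above and 0 below, against the same shares of all genes. Cd274, the ligand PD-L1, had 87.0 and 15.5 CPM against 11.4, 4.45 and 9.89 CPM. Ctla4, an inhibitory receptor of T cells, had 3.69 and 1.37 CPM against 0.104, 0.133 and 0 CPM. Pdcd1, the receptor PD-1, overlapped between the sites at 1.56 and 14.0 CPM against 10.3, 46.7 and 7.34 CPM. Only tumour 2 lay below its orthotopic range, and tumour 3 lay within it.

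Myeloid lists gave a different picture. Macrophage genes did not separate the sites: 1 of 17 lay above and 3 below all orthotopic values, and the median log2FC was 0.08. Over all genes 23.0% and 18.1% did. In tumour 2, 6 of 17 lay above the orthotopic range and 6 below, against 41.1% and 32.3% of all genes. Lyz2, above it there, had 591 and 64.0 CPM against 86.1, 80.2 and 171 CPM. Of 8 large peritoneal macrophage genes 2 lay above all orthotopic values and 1 below. Timd4, above, had 86.1 and 2.01 CPM against 0, 0.133 and 0.0526 CPM. Gata6, below, had 26.4 and 172 CPM against 333, 278 and 240 CPM. Csf1r, the macrophage growth factor receptor, had 110 and 64.6 CPM against 69.0, 52.9 and 77.5 CPM. C1qa, a complement chain made by macrophages, had 48.8 and 50.6 CPM against 65.4, 43.1 and 53.6 CPM. C1qa overlapped fully between sites, and Csf1r overlapped in tumour 3 and lay above the orthotopic range in tumour 2. Arg1, arginase, was high in orthotopic tumour 3 only, at 88.6 CPM against 2.52 to 9.06 CPM in the 4 other tumours. Of 12 neutrophil genes 5 lay above and 0 below, against 23.0% and 18.1% of all genes. Of the 5, 3 exceeded the olfactory level in tumour 3. Csf3r, the granulocyte growth factor receptor, had 39.1 and 14.5 CPM against 4.65, 2.83 and 5.42 CPM. Of 9 mast cell genes 4 lay below all orthotopic values and 0 above, with an unadjusted edgeR p under 0.05 for 1 of them. Over all genes 18.1% lay below, and 34.9% of those with at least 10 CPM. Hdc, the enzyme that makes histamine, had 6.69 and 13.1 CPM against 53.8, 54.7 and 48.7 CPM, with a gap of at least 2-fold. The mast cell proteases Cma1 and Tpsb2 overlapped, because orthotopic tumour 3 was as low as the subcutaneous tumours: Cma1 had 12.7 and 7.66 CPM against 22.8, 18.4 and 5.92 CPM.

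**Figure D3:**
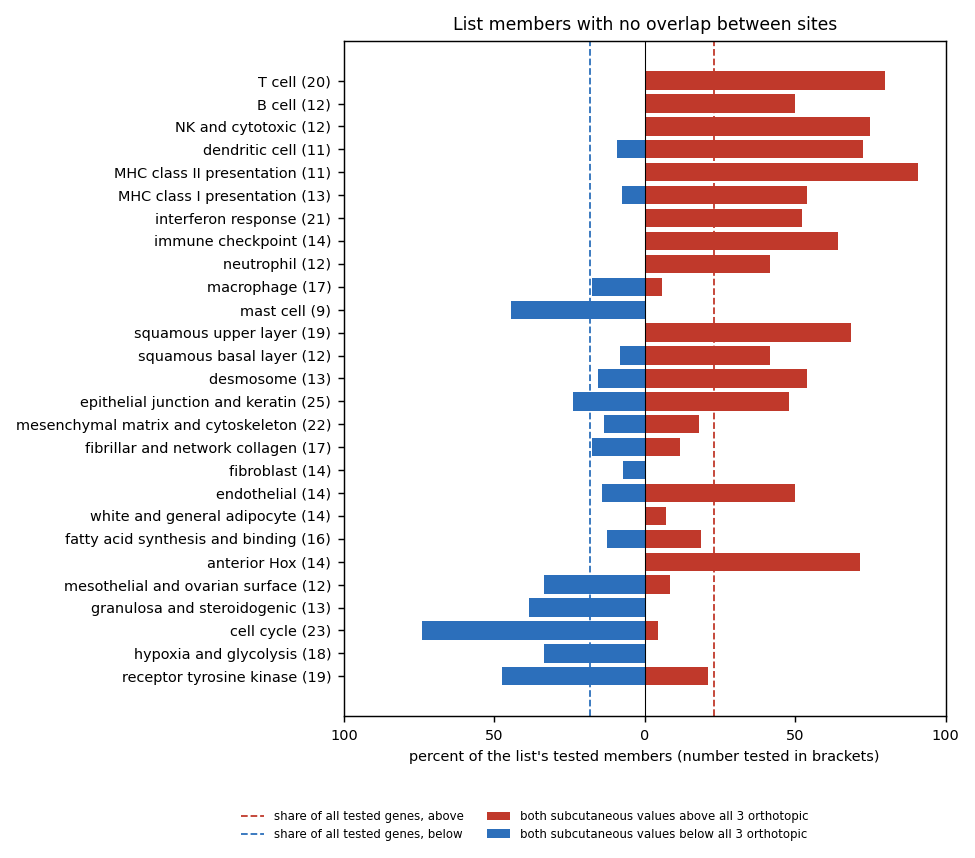
Bars give the percent of each list's tested members whose 2 subcutaneous values both lay above (red, to the right) or below (blue, to the left) all 3 orthotopic values, and dashed lines give the same for all tested genes, 23.0% and 18.1%. Antigen presentation, T cell, NK, dendritic cell, squamous and anterior Hox lists reach far past the upper line, and cell cycle, receptor tyrosine kinase, mast cell and granulosa lists past the lower one. Among genes with at least 10 CPM in every library of 1 site, 34.9% lay below, near the granulosa share.

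Fat and lipid genes set tumour 2 apart from every other tumour. All 14 white and general adipocyte genes lay above the orthotopic range in tumour 2, against 41.1% of all genes, while in tumour 3 1 lay above and 7 below, against 40.6% and 32.1%. Adipoq, the adipokine adiponectin, had 686 and 0.982 CPM against 23.3, 45.3 and 3.18 CPM. Fabp4, the fatty acid binding protein of fat cells, had 2620 and 11.98 CPM against 55.2, 126 and 8.50 CPM. Ucp1, the uncoupling protein of brown fat, had 76.8 and 0.491 CPM against 0, 0.0665 and 0.474 CPM. Adipoq and Fabp4 were thus present in the orthotopic tumours too, most in tumour 2 of that site, and Ucp1 was near 0 in every tumour but subcutaneous tumour 2.

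Enzymes of fatty acid synthesis dominated the counts of subcutaneous tumour 2. Scd1, the stearoyl desaturase, had 55037 and 748 CPM against 854, 2380 and 312 CPM, and took 5.25% of all counts of that library. Fasn, the fatty acid synthase, had 25589 and 437 CPM against 995, 2133 and 594 CPM, and took 2.44%. Elovl6, which elongates their product, was higher in both subcutaneous tumours, at 2397 and 124 CPM against 23.6, 57.2 and 18.6 CPM. Scd2, the related desaturase, went the opposite way, at 514 and 693 CPM against 2322, 1951 and 1631 CPM. Of 16 genes of fatty acid synthesis and binding, 3 lay above all orthotopic values (Fabp5, Elovl6 and Dgat1) and 2 below (Scd2 and Fabp3). Over all genes 23.0% lay above and 18.1% below. Cholesterol synthesis genes stayed close, with 5 of 17 above, 1 below and a median log2FC of 0.33, although Insig1, an inhibitor of that pathway, had 473 and 53.5 CPM against 33.9, 39.2 and 29.8 CPM. Nuclear genes of the respiratory chain split the subcutaneous tumours: 18 of 19 lay above the orthotopic range in tumour 2, against 41.1% of all genes, and 17 of 19 below it in tumour 3, against 32.1%.

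**Figure D4:**
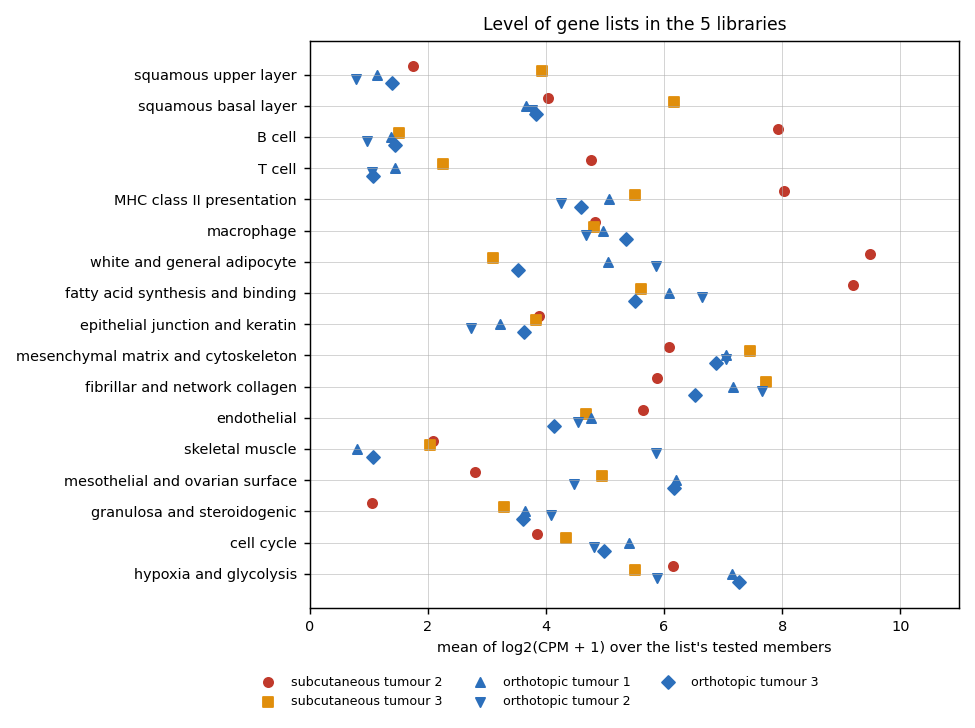
Each point is the mean of log2(CPM + 1) over a list's tested members in 1 library. Subcutaneous tumour 2 lies far to the right for B cell, T cell, MHC class II and fat lists and far to the left for granulosa and mesothelial lists, tumour 3 lies far to the right for squamous lists, and orthotopic tumour 2 for skeletal muscle.

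The study asks where ID8 tumours stand between epithelial and mesenchymal states. Here 12 of 25 epithelial junction and keratin genes lay above all orthotopic values under the skin and 6 below. Over all genes 23.0% lay above and 18.1% below. The list's median log2FC was 1.35, and 0 members passed the adjusted test. The mean log2(CPM + 1) of the list was 3.89 and 3.83 under the skin and 3.23, 2.73 and 3.63 on the ovary. Cdh1, E-cadherin, had 55.3 and 49.7 CPM against 9.29, 5.52 and 14.4 CPM. Grhl1, a grainyhead factor of squamous epithelium, had 16.7 and 20.2 CPM against 1.82, 1.06 and 1.18 CPM. Esrp1, an epithelial splicing regulator, had 13.8 and 19.4 CPM against 0.649, 0.199 and 1.89 CPM. Cdh1 in the cultured line was 94.0 CPM, while Grhl1 had 2.07 CPM there and Esrp1 no read. The genes below included the keratins of simple epithelium Krt8 and Krt18, the junction scaffold Tjp1, and Spint2. Krt8 had 26.7 and 57.1 CPM against 112, 79.4 and 148 CPM. Spint2, a protease inhibitor of epithelial surfaces, had 23.6 and 21.7 CPM against 78.2, 92.0 and 79.5 CPM. The squamous lists moved with the epithelial genes that were higher, and the part of skin epithelium in those values was not tested.

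Of 22 mesenchymal matrix and cytoskeleton genes 4 lay above and 3 below all orthotopic values, and the median log2FC was 0.04. Both shares were under the 23.0% and 18.1% of all genes. The subcutaneous tumours stood on opposite sides, with a mean list level of 6.09 in tumour 2 and 7.45 in tumour 3, against 7.06, 7.04 and 6.88 on the ovary. Postn, periostin, a matrix protein of activated fibroblasts, had 70.6 and 286 CPM against 43.9, 69.6 and 35.1 CPM. Thy1, a surface protein of fibroblasts and T cells, had 55.4 and 49.6 CPM against 20.5, 32.5 and 13.1 CPM. Cdh2, N-cadherin, was the reverse, with 19.2 and 42.5 CPM against 168, 177 and 104 CPM. Vim, vimentin, overlapped between sites at 536 and 1147 CPM against 2203, 1046 and 2459 CPM. Among 9 transcription factors of epithelial to mesenchymal transition 3 lay above (Twist1, Twist2 and Foxc2) and 0 below. The shares over all genes were again 23.0% and 18.1%. Twist1 had 10.46 and 9.67 CPM against 2.91, 4.06 and 1.79 CPM. Zeb1 overlapped at 142 and 92.2 CPM against 128, 152 and 107 CPM, and Snai2 at 14.0 and 16.8 CPM against 14.2, 14.2 and 6.84 CPM.

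Collagen genes divided the subcutaneous tumours in the same way, with 14 of 17 below the orthotopic range in tumour 2 (32.3% of all genes) and 10 above it in tumour 3 (40.6% of all genes). Col1a1, the main chain of fibrillar collagen, had 288 and 2816 CPM against 1300, 1562 and 712 CPM. Of the 17, 3 lay below all orthotopic values and 2 above, against 18.1% and 23.0% of all genes. Col18a1, a basement membrane collagen, had 51.4 and 98.8 CPM against 360, 473 and 138 CPM. Of 14 endothelial genes 7 lay above and 2 below, against the same 23.0% and 18.1%. Pecam1, an adhesion protein of endothelium and leukocytes, had 268 and 60.1 CPM against 51.8, 58.9 and 40.4 CPM. Kdr, the receptor of vascular growth factor, lay below at 154 and 174 CPM against 318, 254 and 175 CPM. Mmp3, a stromal metalloproteinase, had 43.9 and 16.9 CPM against 3.37, 5.75 and 1.32 CPM.

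Genes of granulosa and steroid-making cells were lowest in tumour 2. Of 13 such genes 5 lay below all orthotopic values and 0 above, against 18.1% and 23.0% of all genes. The share below was near the 34.9% of genes with at least 10 CPM. Taken alone, 11 lay below in tumour 2 and 6 in tumour 3, against 32.3% and 32.1% of all genes. The median log2FC was -1.43, and -4.61 for tumour 2 and -0.53 for tumour 3 taken alone, with members without a read at their bound. Inha, the inhibin alpha chain, had 0.955 and 91.9 CPM against 308, 405 and 220 CPM. Nr5a1, the steroidogenic factor, had 1.17 and 33.9 CPM against 139, 135 and 79.7 CPM. Foxl2, the granulosa cell factor, had 0 and 5.74 CPM against 26.6, 38.4 and 11.9 CPM. These 3 genes had lower values in both subcutaneous tumours, yet tumour 3 kept levels that tumour 2 did not show. The cultured line itself had 44.2 CPM of Nr5a1, 3.44 CPM of Inha and 0.106 CPM of Foxl2. Emx2, a homeobox factor of the urogenital ridge, had 1.04 and 26.3 CPM against 163, 161 and 51.3 CPM.

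Mesothelial and ovarian surface genes lay below in 4 of 12 members and above in 1. The share below was near the 34.9% of genes with at least 10 CPM, against 18.1% of all genes. Below the orthotopic range were 9 in tumour 2, against 32.3% of all genes, and 4 in tumour 3, a share near the 32.1% of all genes. Upk3b, a mesothelial membrane protein, had 3.78 and 105 CPM against 717, 109 and 276 CPM, so orthotopic tumour 2 nearly met subcutaneous tumour 3. Wt1, the Wilms tumour factor of mesothelium and of ovarian carcinoma, had 23.0 and 385 CPM against 625, 345 and 561 CPM, and 577 CPM in the line. Tumour 3 lay within the orthotopic range for Wt1, and tumour 2 far below it. In 57 genes with at least 20 CPM in healthy ovary and under 0.5 CPM in the line and in intestine, the median was 0.238% and 7.61% of the ovary level under the skin and 1.28%, 0.776% and 3.28% in the orthotopic tumours. These ovary genes were thus lowest in subcutaneous tumour 2 and highest in subcutaneous tumour 3. In tumour 3, 26 lay above the orthotopic range and 8 below, against 40.6% and 32.1% of all genes. They too were not screened against skin. Of 8 oocyte genes 7 lay above the orthotopic range in tumour 3 and 2 in tumour 2, against 40.6% and 41.1% of all genes. Both subcutaneous values lay above it for 2, and 0 of these exceeded the olfactory level in tumour 3. Nlrp5, Zp3 and Oosp1 had 0.785, 0.785 and 0.540 CPM in tumour 3, under that level, and Zp2 had 1.42 CPM, over it.

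Hox genes keep a record of position along the body. Of 14 tested anterior Hox genes 10 lay above all orthotopic values and 0 below, against 23.0% and 18.1% of all genes. All 10 were over the olfactory level in tumour 3. Hoxb4 had 10.2 and 4.32 CPM against 0.908, 0.399 and 0.526 CPM. Hoxb2 had 3.17 and 1.77 CPM against 0.182, 0 and 0.105 CPM. Hoxa5 had 3.60 and 4.91 CPM against 1.14, 1.097 and 1.00 CPM. These levels are low, yet the subcutaneous tumours were close to each other for this list, with a median log2FC of 1.59 for tumour 2 and 1.90 for tumour 3 taken alone. Of 11 posterior Hox genes 4 lay above and 0 below, against the same shares of all genes. In tumour 3, 10 of 11 posterior and 12 of 14 anterior genes lay above the orthotopic range, against 40.6% of all genes. In tumour 2 it was 4 and 10, against 41.1%, so the posterior count was under the share of all genes. The difference between the lists was not tested. The posterior median was -0.84 for tumour 2 and 1.49 for tumour 3.

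Replication-dependent histone genes were lower in both subcutaneous tumours. Of 57 tested, 41 lay below all orthotopic values (18.1% of all genes, and 34.9% of those with at least 10 CPM), 21 of them by at least 2-fold (0.926% of all genes), and 0 above. The unadjusted edgeR p was under 0.05 in the lower direction for 30, against 5.51% of all genes, and 0 passed the adjusted test. Their summed level was 457 and 371 CPM under the skin, 1587, 1326 and 1088 CPM on the ovary and 3284 CPM in the cultured line. Hist1h2bn, an H2b gene, had 1.74 and 2.50 CPM against 34.8, 41.9 and 30.2 CPM, the widest downward gap of all named genes. Hist1h4k, an H4 gene, had 3.39 and 3.29 CPM against 41.0, 38.1 and 24.1 CPM. Hist1h1b, a linker histone, had 15.5 and 19.8 CPM against 125, 85.0 and 69.1 CPM. The subcutaneous values of Hist1h2bn, Hist1h4k and Hist1h1b were close to each other. The median log2FC of tumours 2 and 3 taken alone was -1.81 and -1.81 for H1, -2.20 and -2.30 for H2b and -1.71 and -2.17 for H4. It differed more for H2a, at -2.07 and -0.85, and for H3, at -2.14 and -0.82. By class, all 5 H1 genes, 9 of 15 H2a, 12 of 15 H2b, 5 of 10 H3 and 10 of 12 H4 genes lay below. Histone genes have near-identical copies, so the values of single genes are uncertain. Most histone messages lack a poly(A) tail, and the libraries were made from total RNA.

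**Figure D5:**
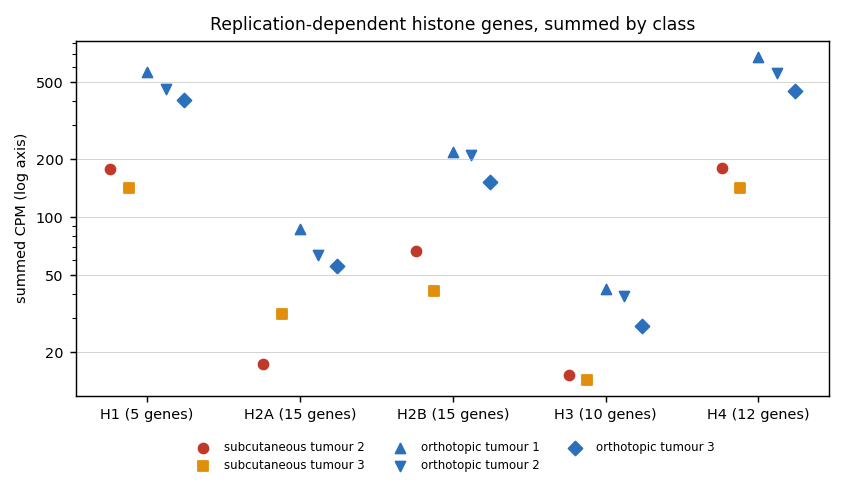
Points give the summed CPM of tested replication-dependent histone genes by class in each library, on a log axis. In every class both subcutaneous tumours lie below all 3 orthotopic tumours.

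The promoters of 2 H2b genes among those with the widest gap are shown because CCAAT and octamer letters are known elements of histone promoters. The windows and source are as above, with capitals for CCAAT and for the octamer ATTTGCAT, each on both strands. RefSeq names the genes H2bc15 and H2bc8.
Hist1h2bn, chr13:21753826-21754075, plus strand: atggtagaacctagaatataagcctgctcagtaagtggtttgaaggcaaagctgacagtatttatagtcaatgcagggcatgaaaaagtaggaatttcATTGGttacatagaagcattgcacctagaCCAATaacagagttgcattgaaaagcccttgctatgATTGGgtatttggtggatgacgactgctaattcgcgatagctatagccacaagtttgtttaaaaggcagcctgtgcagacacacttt
Hist1h2bg, chr13:23571150-23571399, plus strand: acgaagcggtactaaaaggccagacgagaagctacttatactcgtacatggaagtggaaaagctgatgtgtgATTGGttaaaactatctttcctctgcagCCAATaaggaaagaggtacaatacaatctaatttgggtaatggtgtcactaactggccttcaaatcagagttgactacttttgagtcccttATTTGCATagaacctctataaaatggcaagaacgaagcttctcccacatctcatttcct
Hist1h2bg had 5.95 and 4.12 CPM against 36.6, 41.0 and 29.6 CPM. Its octamer began at -59, and the window of Hist1h2bn held the CCAAT letters at -152, -123 and -87 and not the octamer. Of 51 histone genes with a promoter in the table, 42 (82.4%) held CCAAT, against 33.8% of all promoters, and 11 (21.6%) the octamer, against 1.60%. All 13 H2b and 14 H2a promoters held CCAAT, and 3 of 11 H4 promoters did, although 10 of 12 H4 genes lay below the orthotopic range.

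Cell cycle genes stood lower as well. Of 23, 17 lay below all orthotopic values, against 18.1% of all genes and 34.9% of those with at least 10 CPM, and 1 above, the median log2FC was -1.15, and 0 passed the adjusted test. Mcm2, a subunit of the replication helicase, had 21.4 and 20.1 CPM against 102, 75.6 and 55.0 CPM. Plk1, a mitotic kinase, had 5.30 and 6.92 CPM against 32.2, 19.1 and 19.97 CPM. Foxm1, a factor of mitotic genes, had 12.9 and 23.0 CPM against 83.6, 50.5 and 51.9 CPM. The exception above was Ccne1, cyclin E1, with 10.1 and 5.64 CPM against 2.70, 1.40 and 3.63 CPM. In tumour 2, 22 of 23 lay below the orthotopic range, and in tumour 3 17 of 23, against 32.3% and 32.1% of all genes. Beside these values, the genes of the cultured line described above were lowest in tumour 2, at 1.48% of their level in the line, and highest in tumour 3, at 26.5%. Those genes were not screened against skin, and squamous genes were also high in tumour 3. The part of skin cells in the 26.5% was not tested. The part of the share of tumour cells in the cell cycle and histone values was not tested.

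Hypoxia and glycolysis genes lay below in 6 of 18 members and above in 0, a share close to the 34.9% below among genes with at least 10 CPM. Orthotopic tumour 2 was near the subcutaneous values. The subcutaneous tumours differed in this list. In tumour 3, 15 lay below the orthotopic range and 0 above, against 32.1% and 40.6% of all genes. In tumour 2, 8 lay below and 4 above, against 32.3% and 41.1%. Pfkfb3, a regulator of glycolysis, had 442 and 31.5 CPM against 63.7, 50.7 and 97.0 CPM. Slc16a3, the lactate exporter, which is not in the list and was among the genes of widest gap, had 7.68 and 13.1 CPM against 86.9, 48.5 and 68.4 CPM. Vegfa, the vascular growth factor, had 144 and 156 CPM against 880, 213 and 1097 CPM. Car9, a carbonic anhydrase induced by low oxygen, had 1.65 and 1.67 CPM against 39.04, 2.59 and 8.58 CPM. Slc2a1, a glucose transporter, had 37.2 and 36.9 CPM against 140, 43.4 and 181 CPM. For Vegfa, Car9 and Slc2a1 the subcutaneous values were close to each other, while the orthotopic ones spread widely.

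Receptors and ligands of growth signalling differed by gene. Of 19 receptor tyrosine kinases 9 lay below all orthotopic values and 4 above. Over all genes 18.1% lay below and 23.0% above, and among genes with at least 10 CPM 34.9% lay below, so the count above was near the background. Axl, the receptor of Gas6, had 106 and 347 CPM against 801, 789 and 583 CPM. Its relative Tyro3 had 9.33 and 95.1 CPM against 209, 217 and 163 CPM. Igf1r, the receptor of insulin-like growth factor, had 31.2 and 91.3 CPM against 172, 165 and 176 CPM. In each of these tumour 2 was the lowest and tumour 3 stood between it and the ovary. Met, the receptor of hepatocyte growth factor, was the reverse, with 131 and 53.5 CPM against 45.7, 15.5 and 32.3 CPM. Among 14 angiogenic ligands 5 lay above and 4 below, against the 23.0% and 18.1% of all genes. Angpt1, the activating ligand of Tek, had 23.2 and 6.18 CPM against 1.38, 1.89 and 0.789 CPM, and Apln, apelin, had 1.74 and 5.15 CPM against 29.3, 41.1 and 15.1 CPM. Fst, the activin inhibitor follistatin, had 9.55 and 18.8 CPM against 3.43, 2.63 and 1.47 CPM. Bmp7, a bone morphogenetic protein, had 4.39 and 45.5 CPM against 169, 89.1 and 46.3 CPM, where subcutaneous tumour 3 nearly met orthotopic tumour 3.

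Other genes with a wide downward gap belonged to no list. Reep1, a shaper of the endoplasmic reticulum, had 12.4 and 28.8 CPM against 164, 200 and 117 CPM. Agt, angiotensinogen, had 3.00 and 5.50 CPM against 28.9, 90.6 and 22.6 CPM. Nrn1, neuritin, had 3.21 and 2.31 CPM against 20.8, 20.3 and 12.7 CPM. In each the subcutaneous tumours lay well under the lowest orthotopic value, which their choice by the gap largely fixes.

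The correlation of 0.861 between the subcutaneous tumours was the lowest of any pair among the 5 libraries. Tumour 2 exceeded tumour 3 by more than 4-fold on the log2(CPM + 0.5) scale for 1198 genes (5.28%), and tumour 3 exceeded tumour 2 for 1952 (8.61%), with 1 library each and no test. The widest differences toward tumour 2 were in fat and liver-type metabolism: Cfd, adipsin, had 1716 and 1.37 CPM, Car3, a carbonic anhydrase of fat, 4367 and 6.58 CPM, and Pck1, which makes phosphoenolpyruvate, 953 and 1.52 CPM. Toward tumour 3 they were Krt6a, Elovl4, an elongase of skin lipids with 1.82 and 92.9 CPM, Spp1, osteopontin, with 3.34 and 150 CPM, and Sfrp4, a Wnt inhibitor, with 0.391 and 57.8 CPM. Elovl4 had at most 1.13 CPM on the ovary, while the orthotopic values of Spp1, 68.2, 46.5 and 130 CPM, lay close to tumour 3. Of 20 Wnt ligands and modulators 15 lay below the orthotopic range in tumour 2, against 32.3% of all genes, while the 7 above it in tumour 3 were under the 40.6% of all genes.

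Taken alone against the same 3 orthotopic libraries, tumour 3 gave 1 higher gene (0.00441%) and 0 lower genes (0%) at an adjusted p under 0.05 by edgeR, with 2485 and 789 at an unadjusted p under 0.05, while DESeq2 called 429 in total. The gene was Amn, a membrane protein of intestine and kidney, with 0.434 and 7.26 CPM against 0.260, 0.199 and 0.211 CPM (edgeR adjusted p = 0.00961), named after its values were seen. Among genes with at least 10 CPM the next by p were Lad1, with an edgeR adjusted p of 0.0927 in tumour 3, and Krt10, Dsc3, Ly6d and Krtdap. The lowest p in the lower direction in tumour 3 belonged to histones, Hist1h2bg, Hist1h4k and Hist1h4n among them. In tumour 2 alone the smallest p were those of the B cell genes Ccr6, Bank1, Cd22, Fcrla and Cxcr5, followed by Fabp5 (edgeR adjusted p = 0.00103). Efnb2, an ephrin of arteries, fell in tumour 2 alone, with 23.9 CPM against 154, 184 and 165 CPM (edgeR adjusted p = 0.00308). Abat, which breaks down GABA, fell there with 4.17 CPM against 213, 144 and 142 CPM (edgeR adjusted p = 0.00694). In tumour 3 Efnb2 had 97.5 CPM and Abat 137 CPM, nearer the orthotopic values. Both single-tumour comparisons share their orthotopic libraries, so their values are set side by side here and not counted as separate evidence.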

How the data were processed

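Trizol-extracted total RNA was made into directional libraries (NEBNext RNA Ultra II, modified) and sequenced, per the labels' protocols. The authors deposited raw read counts per gene for the tumour and control libraries; the submitters' processing notes name HISAT, HISAT2, featureCounts and DESeq2 and the builds hg19 and mm39, without roles, and no coordinates were taken from the counts. 1 further column of per-sample counts matched no labelled sample and was not used. Of 43629 genes, 22671 with over 0.5 CPM in at least 2 of 17 libraries were tested. edgeR 4.0.16 (R 4.3.3) was fitted to 17 libraries in 8 groups (9 residual degrees of freedom, TMM factors, robust quasi-likelihood), with the contrast of subcutaneous against orthotopic tumours and with each subcutaneous tumour alone, and p-values were adjusted by Benjamini-Hochberg over all tested genes at 0.05. The model was tested on simulated data. Alternatives were DESeq2 1.42.0, voom with sample weights in limma 3.58.1, other scalings and filters, the 5 libraries alone, a replicate block and each library left out. Separation of groups was counted on CPM, with gaps and ratios on log2(CPM + 0.5), so low genes have understated ratios. A gene with no read in a group was bounded at 3 counts over the group. Intervals and bounds cover counting error only. Genes were grouped by 56 lists with 821 entries. The members and lists were chosen with earlier results of these data known. The text names the called genes, up to 12 genes in each direction with the widest gap and at least 10 CPM in every library of the higher site, up to 4 members of each list by p and others that cover its range, up to 8 genes in each direction between the subcutaneous tumours with at least 50 CPM, and up to 6 in each direction for each of them alone. Overlapping genes and near-identical copies could share reads. Promoters came from RefSeq by symbol.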

Additional observations from a re-analysis of the deposited data

How the results depend on the processing

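The number of called genes depended on the settings, and the cause was not tested. Against 3 genes, edgeR called 6 with library totals, 140 with no filter beyond 1 count, 256 with a filter over 1 CPM in 2 of the 5 libraries, 182 without robust fitting and 0 with the 5 libraries alone, DESeq2 called 2300 and voom 306. Leaving out single libraries gave 0 to 972 genes, the highest without subcutaneous tumour 3 and 1 without tumour 2. The replicate numbers shared by 2 pairs were not shown to pair the samples (correlations of deviations 0.031 and 0.059), and with the replicate block 15 genes were called. Upward separation (5212) ranged from 5813 to 9211 genes, upward separation by 2-fold (1004) from 1202 to 3348, downward separation (4099) from 4588 to 8245 and downward separation by 2-fold (210) from 244 to 2350 with 1 library left out, where fewer samples must separate. The last count was 110 with library totals and 132 with the 1 CPM filter. Upward and downward separation were 4863 and 4889 without mitochondrial genes, and 5967 and 3022 with library totals. Tumour 2 alone gave 972 genes, 284 to 400 with an orthotopic library left out, and 3168 by DESeq2. Tumour 3 alone gave 1 gene, 2 with library totals, 8 with no filter, 0 with the 1 CPM filter, 0 to 1 with an orthotopic library left out, and 429 by DESeq2. The median log2FC of all genes was 0.31 with RLE factors, 0.35 with library totals, 0.16 without mitochondrial genes and 0.63 with no filter. Of 56 list medians, 49 kept their direction under every scaling and filter, 47 without each orthotopic library, 44 without subcutaneous tumour 2 and 43 without tumour 3; the macrophage median became -0.05 without mitochondrial genes and the mesenchymal one -0.05. The skeletal muscle median was -2.85 and 3.21 without orthotopic tumour 2. Of 141 genes named with a direction, 141 kept it under each alternative run, which their choice by separation largely fixes. Low counts in tumour 3, under the olfactory level, limit what its single genes show.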
